A study of Mus musculus with 9 samples.

Results

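The F-box genes of the array were taken as every probe whose array symbol begins with Fbxo, Fbxl or Fbxw followed by a number, which gave 87 probes for 52 symbols out of 25697 probes for 18120 symbols. Of the 52 symbols, 31 had 1 probe and 21 had several. *Fbxo2* was the starting point of this choice because its OV signal was already known to be high in these arrays, so its OV values are given as a description without a test. The other members were chosen by symbol. The samples came from CD-1 mouse embryos at E10.5 with no allele or treatment named for any group. They were 3 pools of dissected otic vesicles (OV), the closed epithelial sacs that form the inner ear, 3 pools of periotic tissue (mesenchyme and hindbrain next to the vesicle), and 3 pools of embryo-minus-otic tissue, the embryo left after the greater otic region was taken away. Embryos of 3 litters were dissected into these pools, and each pool was hybridized to its own single-colour MouseRef-8 v2.0 array. A *q*-value here sets a group difference against the spread between pools of the same tissue, without pairing pools by litter. A pool mixes many cell types, and fewer cells of a type cannot be told apart from less RNA per cell.

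F-box proteins are the substrate-binding subunits of SCF ubiquitin ligases, in which Skp1 links the F-box protein to Cul1 and Rbx1, and the complex marks chosen proteins with ubiquitin. They are sorted by the domain that binds the substrate: leucine-rich repeats in the Fbxl class, WD40 repeats in the Fbxw class, and other domains in the Fbxo class. *Fbxo2*, *Fbxo6*, *Fbxo17*, *Fbxo27* and *Fbxo44* form a subfamily that shares a sugar-binding type of domain, and the Fbxo2 and Fbxo6 proteins bind N-linked high-mannose sugars on glycoproteins that the endoplasmic reticulum sends back for degradation. Fbxo2 is best known from neurons of the brain and from the cochlea, which degenerates with age in mice with a targeted deletion of the gene.

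*Fbxo6*, *Fbxo44* and *Fbxo2* follow each other on chromosome 4 in the RefSeq annotation of GRCm38.p6, with no protein-coding gene between them, and *Fbxo27* and *Fbxo17* are neighbours on chromosome 7. *Fbxo2* and *Fbxo44* lie on opposite strands, and the nearest annotated *Fbxo44* start is 574 bases from the *Fbxo2* start. The promoter windows of this pair are shown because both genes gave more signal in OV than in either non-otic group. Each window is RefSeq sequence from 250 bases before to 50 bases after the start, written 5′ to 3′ on the gene's own strand, and capitals mark each match on either strand to GGGCGG (GC box) or CCAAT.
Fbxo2, chr4:148160418-148160717, plus strand: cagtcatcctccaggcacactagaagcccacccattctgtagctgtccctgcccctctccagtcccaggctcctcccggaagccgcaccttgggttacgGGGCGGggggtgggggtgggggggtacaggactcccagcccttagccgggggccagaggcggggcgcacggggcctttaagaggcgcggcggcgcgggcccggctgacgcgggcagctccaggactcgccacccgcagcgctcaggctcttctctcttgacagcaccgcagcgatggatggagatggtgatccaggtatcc
Fbxo44, chr4:148160045-148160344, minus strand: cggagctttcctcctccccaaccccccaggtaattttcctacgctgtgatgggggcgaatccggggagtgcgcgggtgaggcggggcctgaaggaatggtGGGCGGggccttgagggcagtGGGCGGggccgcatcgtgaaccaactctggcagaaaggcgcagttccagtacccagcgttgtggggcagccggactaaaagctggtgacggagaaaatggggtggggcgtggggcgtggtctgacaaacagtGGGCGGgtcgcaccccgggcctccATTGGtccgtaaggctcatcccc
The *Fbxo2* window was 69.0% G or C and held 1 GC box, and the *Fbxo44* window, that of the annotated start nearest to *Fbxo2*, was 65.3% G or C and held 3 GC boxes and 1 CCAAT match, against a median G or C content of 52.7% over all 32817 promoter windows. Neither printed window held TATAAA or the E-box letters CANNTG. The 2 other annotated *Fbxo44* windows, at 57.0% and 68.0% G or C, held no GC box, and the first held 1 CCAAT match and the second 1 CANNTG match. Over all windows, 35.6% held a GC box, 37.4% CCAAT, 13.6% TATAAA and 72.3% CANNTG. A match is a description of the letters and not evidence that a factor binds there.

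Levels are log2 intensities after quantile normalization, a probe counts as measured above background where its detection *p*-value on that array was under 0.01, and differences between groups are differences of mean log2 intensity. *Fbxo2* had log2 intensities of 9.89, 10.03 and 10.02 in the OV pools, 6.07, 6.05 and 6.37 in the periotic pools, and 6.12, 6.02 and 6.26 in the embryo-minus-otic pools. All OV pools were far above every non-otic pool, and the non-otic groups overlapped. Its probe was above background on 3 of 3 OV arrays but on only 1 of 3 arrays in each non-otic group. The OV mean of 9.98 ± 0.0746 (SD, n = 3) was 3.85 log2 units above embryo-minus-otic and 3.81 above periotic tissue (SE 0.104 for each), and the OV fold Δ against the higher non-otic group was 14.1, the second rank of all probes. When the signal of the negative controls was also subtracted (neqc), this fold Δ was 30.4. Periotic and embryo-minus-otic tissue differed by 0.0321 (SE 0.104, *q* = 0.938, limma with Benjamini-Hochberg), which a spread of this size cannot tell from 0.

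*Fbxo44*, the gene next to *Fbxo2*, also gave its strongest signal in OV. Its log2 intensities were 7.78, 7.68 and 7.99 in OV, 6.51, 6.61 and 6.70 in periotic tissue, next to 5.96, 5.98 and 6.38 in embryo-minus-otic tissue. No pool of one group overlapped with another group, and the order was OV, then periotic tissue, then embryo-minus-otic, where only 1 of 3 arrays was above background. The OV mean of 7.81 ± 0.159 (SD, n = 3) was 1.71 above embryo-minus-otic (SE 0.119, *q* = 6.04e-08, 3.27-fold, limma with Benjamini-Hochberg) and 1.21 above periotic tissue (SE 0.119, *q* = 2.79e-06, 2.31-fold). The first fold was 6.27 under neqc. Periotic tissue was in turn 0.50 above embryo-minus-otic (SE 0.119, *q* = 0.0192, 1.41-fold, limma), but this call was lost when periotic pool 2 (*q* = 0.0695), periotic pool 3 (*q* = 0.0748), embryo-minus-otic pool 1 (*q* = 0.0824) or embryo-minus-otic pool 2 (*q* = 0.0725) was left out, with folds between 1.35 and 1.41. Its probe was measured above background on all 3 periotic arrays, where the *Fbxo2* probe was on 1.

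*Fbxo6*, listed on the array as Fbxo6b, went the other way. Its log2 intensities were 8.49, 8.57 and 8.17 in OV, 9.0, 8.98 and 8.79 in periotic tissue, next to 9.09, 9.0 and 8.77 in embryo-minus-otic tissue. All 3 OV pools were below all 6 non-otic pools, the non-otic groups overlapped, and the probe was above background on all 9 arrays. OV was 1.46-fold lower than embryo-minus-otic (difference -0.54, SE 0.116, *q* = 0.00511, limma with Benjamini-Hochberg) and 1.43-fold lower than periotic tissue (difference -0.52, SE 0.116, *q* = 0.00762). The direction was the same under every scaling, but the call against embryo-minus-otic was lost with median normalization (*q* = 0.214) and without normalization (*q* = 0.12). Periotic and embryo-minus-otic tissue differed by -0.0283 (*q* = 0.954, limma).

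Of the paralogs on chromosome 7, *Fbxo27* was called in 1 OV comparison and *Fbxo17* was not measured. *Fbxo27* had log2 intensities of 6.82, 6.73 and 6.75 in OV, 6.31, 6.44 and 6.33 in periotic tissue, next to 6.30, 6.79 and 6.62 in embryo-minus-otic tissue. OV was above every periotic pool but lay within the range of embryo-minus-otic or just past it. The difference was 0.40 against periotic tissue (SE 0.111, *q* = 0.0285, 1.32-fold, limma with Benjamini-Hochberg) and 0.19 against embryo-minus-otic (SE 0.111, *q* = 0.363). The first call was lost when any single OV pool was left out (*q* between 0.0675 and 0.103), or periotic pool 1 (*q* = 0.11) or 3 (*q* = 0.0865), with folds from 1.30 to 1.34. *Fbxo17* was above background on none of the 9 arrays, so its values between 5.65 and 5.99 say only that no signal was measured by this probe.

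**Figure D1:**
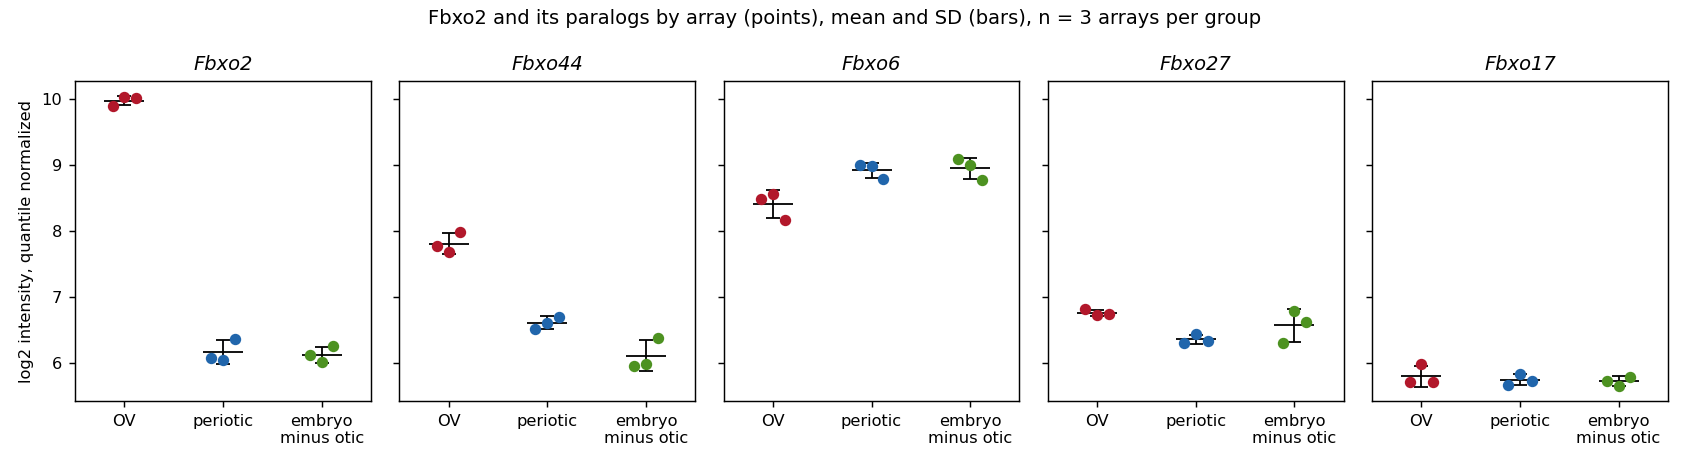
Log2 intensity (quantile normalized) of *Fbxo2* and its 4 paralogs in each of the 9 arrays, with the horizontal bar at the group mean and error bars of 1 SD (n = 3 arrays per group). *Fbxo2* and *Fbxo44* were highest in OV, *Fbxo6* was lowest in OV, and *Fbxo17* lay between 5.65 and 5.99, above background on none of the arrays. Levels of different probes cannot be compared, only the groups within a panel.

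Genes farther along the chromosome were set beside this trio to describe the locus. In the RefSeq annotation *Mad2l2* is the protein-coding gene next to *Fbxo6*, *Disp3* is the one next to *Fbxo2* on the other side, and *Mtor* lies beyond *Disp3*. *Mad2l2*, which codes for a subunit of a DNA polymerase used in lesion bypass, differed by 0.22 between OV and embryo-minus-otic (SE 0.127, *q* = 0.377) and by 0.0222 between OV and periotic tissue (*q* = 0.968, limma). *Mtor*, the kinase of the TORC complexes, had 2 probes, and the one above background on all arrays differed by 0.31 (SE 0.131, *q* = 0.18) and -0.038 (*q* = 0.943, limma) in the same order. None of these flanking probes was called in either OV comparison, and no probe was matched to *Disp3*. Within the trio the signs were therefore mixed, with *Fbxo6* lower and *Fbxo44* and *Fbxo2* higher in OV.

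**Figure D2:**
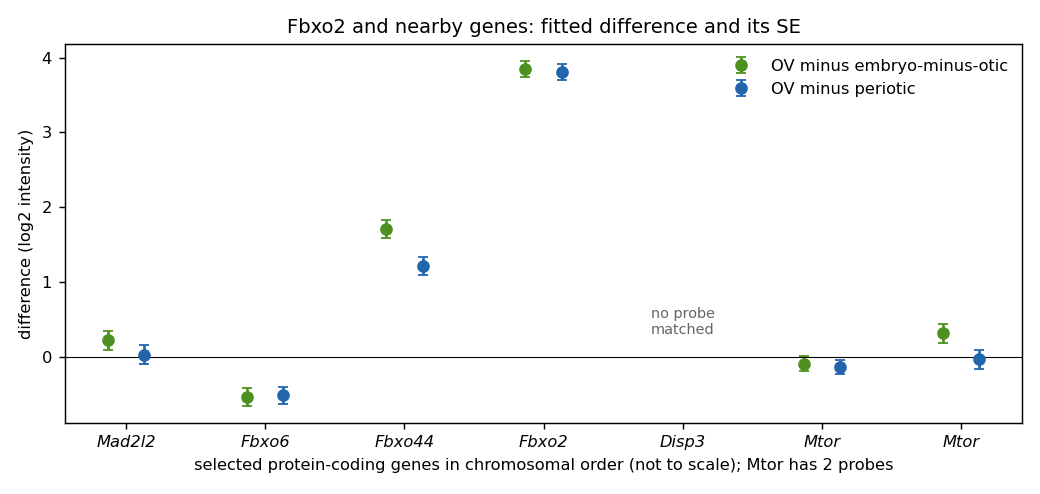
Differences of mean log2 intensity between OV and each non-otic group for *Fbxo2* and selected protein-coding genes on either side of it, in chromosomal order and not to scale, with error bars of 1 SE from the fit. *Fbxo2* (3.85 and 3.81) and *Fbxo44* (1.71 and 1.21) lie above 0, *Fbxo6* (-0.54 and -0.52) below it, and *Mad2l2* and *Mtor* were not called.

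Calls over the family were set beside those over the whole array. In OV against embryo-minus-otic, 12 of 87 F-box probes (13.8%) were called at *q* under 0.05, with 9 higher and 3 lower, while 11.4% of all 25697 probes were called (5.89% higher and 5.51% lower). In OV against periotic tissue, 12 of 87 (13.8%) were called, with 10 higher and 2 lower, against 10.2% of all probes (5.07% higher and 5.15% lower). In periotic against embryo-minus-otic tissue, 2 of 87 (2.30%) were called, both higher in periotic tissue, against 5.81% of all probes (2.86% higher and 2.95% lower). With higher and lower calls counted alike, the shares in the OV comparisons lay near those of the array. By direction they did not. Against embryo-minus-otic and periotic tissue, 10.3% and 11.5% of F-box probes were higher in OV, above the array's shares. The lower shares were 3.45% and 2.3%, below the array's. *Fbxo2* is among the higher calls of both comparisons, and a difference from the array was not tested. Neither these shares nor the 2 calls between the non-otic groups are a result about the family. The OV comparisons share the OV arrays. Without OV pool 1 the count against periotic tissue was 7 and without OV pool 3 it was 6, and the 2 calls between the non-otic groups fell to 0 or 1 without any one of those 6 pools.

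Outside *Fbxo2* and *Fbxo44*, no F-box probe differed by more than 1 log2 unit between OV and embryo-minus-otic, and against periotic tissue only these and 1 *Fbxo32* probe did. Of the 87 probes, 80 were within 0.5 log2 units in OV against embryo-minus-otic, 81 in OV against periotic tissue and 87 between the non-otic groups. The median absolute difference was 0.114, 0.092 and 0.075 for the F-box probes, beside 0.101, 0.094 and 0.09 for all probes. The median signed difference was 0.038, 0.002 and -0.004. F-box probes were above background on all 9 arrays in 47.1% of cases (41 probes) and on no array in 27.6% (24 probes), beside 38.0% and 45.9% of all probes. For 52 F-box probes, every array of 1 or more groups passed detection.

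**Figure D3:**
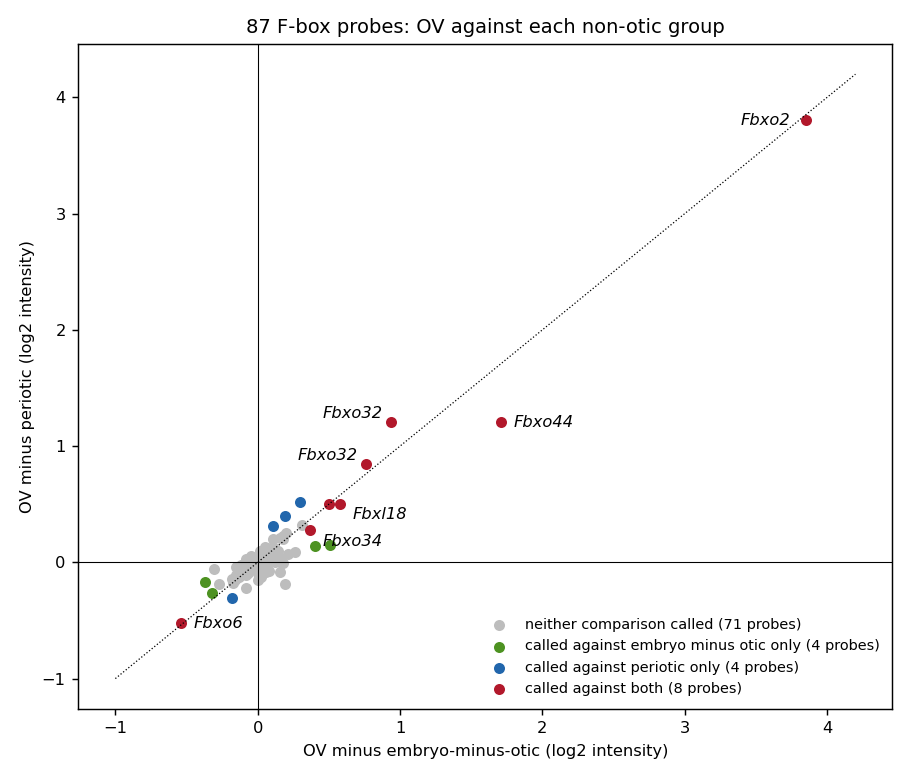
Difference of mean log2 intensity between OV and periotic tissue (vertical) against the difference between OV and embryo-minus-otic (horizontal) for each of the 87 F-box probes, coloured by the comparisons in which the probe had *q* under 0.05, with the dotted line at equal differences. Most of the probes gather around 0, 71 were called in neither comparison, and *Fbxo2* stands apart at 3.85 and 3.81. The axes share the OV arrays, and the colour of *Fbxo2* is a description because it was chosen for its OV signal.

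The OV pools were called against both non-otic groups in the same direction for 8 F-box probes (9.20%, all probes 6.16%), with 7 higher (all probes 3.51%) and 1 lower (all probes 2.65%). The 7 higher probes belonged to *Fbxo2*, *Fbxo44*, *Fbxo32*, *Fbxl18* and *Fbxo34*, and the lower probe to *Fbxo6*. With OV pool 3 left out the count was 5. *Fbxo2*, chosen for its OV signal, is among the 8 and among the 7, so these counts are a description and nothing is read from them against the array's shares.

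*Fbxo32*, on chromosome 15, codes for atrogin-1, a ubiquitin ligase subunit known for its rise in wasting skeletal and heart muscle. Its first probe had log2 intensities of 7.46, 7.37 and 7.53 in OV, 6.37, 6.17 and 6.2 in periotic tissue, next to 6.46, 6.42 and 6.65 in embryo-minus-otic tissue. OV was above all other pools, and periotic tissue lay just below embryo-minus-otic without a call (*q* = 0.137, limma). OV was higher by 0.94 against embryo-minus-otic (SE 0.0945, *q* = 3.87e-06, 1.92-fold, limma with Benjamini-Hochberg) and by 1.21 against periotic tissue (SE 0.0945, *q* = 2.11e-07, 2.31-fold). The second probe had 6.90, 6.65 and 6.82 in OV and between 5.80 and 6.26 in the 6 non-otic pools. It showed the same order of OV above the rest, with 0.76 against embryo-minus-otic (SE 0.112, *q* = 0.000201, 1.69-fold) and at least 1.53-fold against periotic tissue (*q* = 6.28e-05, limma), where it was not well above background on any array. A bound of this kind sets the bright group's mean against the lowest signal that still passed detection on each dim array, or the dim probe's own signal where that was higher. The third probe was above background on 1 of 9 arrays, with OV between 6.17 and 6.24, periotic tissue between 5.45 and 5.86 and embryo-minus-otic between 5.84 and 5.95, and was called against periotic tissue (0.52, *q* = 0.00252, at least 1.01-fold) but not against embryo-minus-otic (0.30, *q* = 0.0747, limma). Under neqc the folds were 3.76 for the first probe against periotic tissue, and 2.62 and 2.96 for the second probe.

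Muscle markers were examined beside *Fbxo32*. Of 10 heart and skeletal muscle genes on the array, 8 were lower in OV than in embryo-minus-otic (5.51% of all probes) and none was called in OV against periotic tissue (10.2% of all probes), where 1 probe had an unadjusted *p* under 0.05 in limma beside 19.1% of all probes. Their mean log2 intensity was 5.79 to 6.32 in the OV pools, 5.79 to 5.84 in the periotic pools and 7.93 to 8.08 in the embryo-minus-otic pools. *Myl4*, an atrial myosin light chain, was above background on 1 of 3 OV arrays and had a mean of 6.42 in OV against 11.69 in embryo-minus-otic.

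*Fbxl18*, on chromosome 5, belongs to the leucine-rich repeat class and was higher in OV with both of its probes. The first probe had log2 intensities of 7.08, 6.85 and 7.61 in OV, 6.65, 6.74 and 6.66 in periotic tissue, next to 6.72, 6.51 and 6.81 in embryo-minus-otic tissue. OV pool 3 was well above the other OV pools, and OV pool 2 exceeded the highest embryo-minus-otic pool only slightly. The differences were 0.50 (SE 0.148, *q* = 0.0413) and 0.50 (*q* = 0.0436, limma with Benjamini-Hochberg), 1.41-fold each, and without OV pool 3 they were 1.22-fold (*q* = 0.179 and 0.195). These calls were lost in 11 and 10 of the 18 alternatives, among them neqc (*q* = 0.0895 and 0.0993, limma), no normalization (*q* = 0.288 and 0.189), array weights (*q* = 0.0918 and 0.0554) and the omission of OV pool 1 (*q* = 0.0642 and 0.066) or of any periotic pool. The second probe had 6.76, 6.79 and 7.16 in OV, 6.36, 6.56 and 6.29 in periotic tissue, next to 6.43, 6.33 and 6.2 in embryo-minus-otic tissue. Here OV did not overlap with the rest, and the differences were 0.58 (SE 0.115, *q* = 0.00278, 1.5-fold) and 0.50 (SE 0.115, *q* = 0.00882, 1.41-fold, limma), the second of which had *q* = 0.0518 without OV pool 3, and neither was called without normalization (*q* = 0.178 and 0.169).

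*Fbxo34*, on chromosome 14, was called with 1 of its 4 probes. That probe had 7.03, 7.07 and 7.19 in OV, 6.80, 6.78 and 6.87 in periotic tissue, next to 6.78, 6.69 and 6.71 in embryo-minus-otic tissue. OV was above every other pool, by 0.37 against embryo-minus-otic (SE 0.0836, *q* = 0.00796, 1.29-fold) and by 0.28 against periotic tissue (SE 0.0836, *q* = 0.0444, 1.21-fold, limma with Benjamini-Hochberg). The call against periotic tissue was lost without any one of the OV or periotic pools, or without embryo-minus-otic pool 3, with *q* between 0.0552 and 0.191 and folds between 1.18 and 1.24. It was also lost with median normalization (*q* = 0.194), an intensity trend in the fit (*q* = 0.102) and only the groups compared (*q* = 0.0527, limma), and without normalization neither call was made (*q* = 0.712 and 1.0). The other probes above background differed by 0.16 and 0.20 against embryo-minus-otic (*q* = 0.3 and 0.247, limma), so the probes of this gene shared a direction but not the call.

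**Figure D4:**
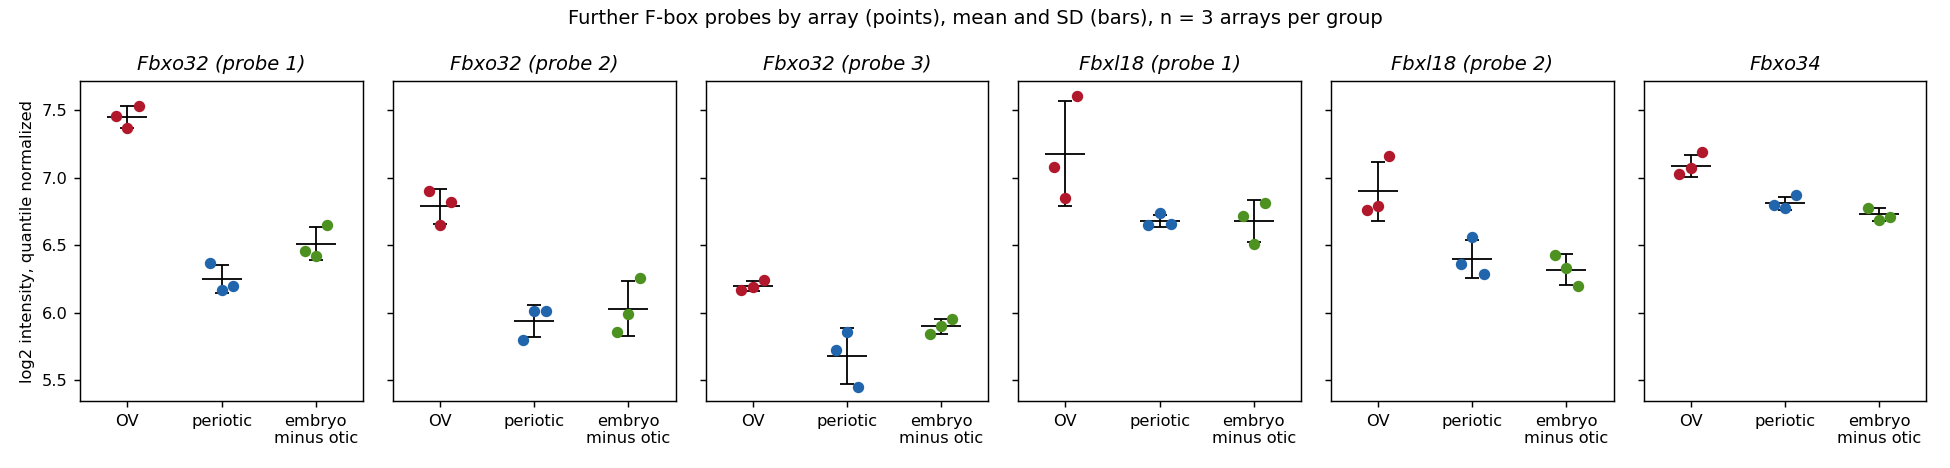
Log2 intensity (quantile normalized) in each of the 9 arrays for the 3 *Fbxo32* probes, the 2 *Fbxl18* probes and the called *Fbxo34* probe, with the horizontal bar at the group mean and error bars of 1 SD (n = 3 arrays per group). OV lies above both non-otic groups in every panel, and OV pool 3 of the first *Fbxl18* probe stands at 7.61, apart from 7.08 and 6.85. The third *Fbxo32* probe was above background on 1 array only.

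Some members were called against 1 non-otic group alone, and whether their OV difference depends on the group was not tested. *Fbxo16* was higher in OV than in embryo-minus-otic (7.24, 7.33 and 7.0 against 6.81, 6.47 and 6.78), with a difference of 0.51 (SE 0.109, *q* = 0.0054, 1.42-fold, limma), which was not called without normalization between arrays (1.37-fold, *q* = 0.221). *Fbxo21* was also higher there (10.16, 10.19 and 10.17 against 9.70, 9.84 and 9.80), by 0.40 (SE 0.101, *q* = 0.017, 1.32-fold, limma), though not without OV pool 2 (1.31-fold, *q* = 0.0593) or embryo-minus-otic pool 1 (1.28-fold, *q* = 0.0639), with median normalization (*q* = 0.0578) or without normalization (*q* = 0.211). The periotic pools of *Fbxo16*, at 6.99 to 7.07, overlapped the OV range, and those of *Fbxo21* spanned it at 9.84 to 10.24.

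*Fbxo31*, described as a factor that targets cyclin D1 after DNA damage, was lower in OV than in embryo-minus-otic with 1 of its 2 probes (7.09, 7.06 and 7.04 against 7.38, 7.31 and 7.47), a difference of -0.32 (SE 0.083, *q* = 0.0186, 1.25-fold lower, limma). The other probe gave -0.31 (*q* = 0.102, limma), so the probes shared the direction. The call was lost without OV pool 2 (*q* = 0.0592), OV pool 3 (*q* = 0.0662) or embryo-minus-otic pool 3 (*q* = 0.074), with ratios of 0.802 to 0.824.

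*Fbxl12* was lower in OV than in embryo-minus-otic with 1 of 4 probes (8.25, 8.21 and 8.22 against 8.62, 8.68 and 8.47), a difference of -0.37 (SE 0.0841, *q* = 0.00859, 1.29-fold lower, limma). Its other probes ranged from -0.18 to 0.11 and were not called, so the probes disagreed. With median normalization the ratio was 0.878 (*q* = 0.598) and without normalization 0.799 (*q* = 0.622).

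*Fbxl10*, now named *Kdm2b*, codes for a histone demethylase that binds CpG islands and also carries an F-box. Its 1 probe above background on all arrays was lower in OV than in periotic tissue (9.54, 9.55 and 9.50 against 9.81, 9.90 and 9.81), a difference of -0.31 (SE 0.0798, *q* = 0.0186, 1.24-fold lower, limma). The call was lost without OV pool 1 (*q* = 0.0529), OV pool 3 (*q* = 0.0715) or periotic pool 2 (*q* = 0.0821), with ratios of 0.804 to 0.822.

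*Fbxo7*, a gene linked to early-onset parkinsonism and mitophagy, was higher in OV than in periotic tissue (6.53, 6.41 and 6.47 against 6.22, 6.11 and 6.13), by 0.31 (SE 0.0851, *q* = 0.0253, 1.24-fold, limma). Only 1 of 3 periotic arrays measured it above background. Without OV pool 1 (*q* = 0.104) or 3 (*q* = 0.0712), or periotic pool 2 (*q* = 0.0978) or 3 (*q* = 0.082), it was not called, at 1.22-fold to 1.25-fold.

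The *Fbxo27* call and the *Fbxo31*, *Fbxl10* and *Fbxo7* calls were also lost with median normalization (*q* between 0.06 and 0.362, limma) and without normalization (*q* between 0.441 and 0.831), and those of *Fbxo31* (*q* = 0.0587) and *Fbxl10* (*q* = 0.0907) with an intensity trend.

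Between the non-otic groups, *Fbxo46* on chromosome 7 was the only called member beside *Fbxo44*. Its log2 intensities were 6.73, 6.77 and 6.91 in periotic tissue, 6.44, 6.48 and 6.36 in embryo-minus-otic tissue, and 6.55, 6.78 and 6.51 in OV. Periotic tissue lay above embryo-minus-otic without overlap, by 0.37 (SE 0.0951, *q* = 0.0288, 1.30-fold, limma), and OV spanned the gap. Leaving out any periotic pool, or embryo-minus-otic pool 1 or 3, ended this call, with *q* between 0.0521 and 0.114 and folds between 1.24 and 1.33. Median normalization (*q* = 0.0701, limma) and no normalization (*q* = 0.855) ended it too, and no normalization also ended the *Fbxo44* call between these groups (*q* = 0.484).

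The members fall into 3 classes, to be read beside the 11.4% and 10.2% of all probes called in the OV comparisons. The Fbxo class had 31 symbols and 50 probes, with 7 higher and 2 lower in OV against embryo-minus-otic and 8 higher and 1 lower against periotic tissue. The Fbxl class had 14 symbols and 27 probes, with 2 higher and 1 lower in each of these comparisons. The Fbxw class had 7 symbols and 10 probes, of which 5 passed detection throughout 1 or more groups, and none was called or reached an unadjusted *p* under 0.05 in limma (0 probes in each comparison). A difference between classes was not tested, and nothing is read from the absence of calls among so few probes.

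Several F-box genes with well-known substrates were not called in any comparison. *Fbxw7*, which targets cyclin E, Myc and Notch, had 3 probes, and the one above background on all arrays had 7.40, 7.44 and 7.64 in OV, 7.65, 7.69 and 7.67 in periotic tissue, next to 7.64, 7.98 and 7.35 in embryo-minus-otic tissue. OV was below every periotic pool, with a difference of -0.18 that was not called (SE 0.128, *q* = 0.548, limma), and it overlapped with embryo-minus-otic. *Fbxl5*, the iron-sensing regulator of Irp2, was above background with 1 of 4 probes and differed by 0.14 between OV and embryo-minus-otic (*q* = 0.481) and by 0.0437 between OV and periotic tissue (*q* = 0.898, limma). *Fbxw11*, a β-TrCP paralog, and *Fbxo5*, which codes for the mitotic regulator Emi1, were above background on none of the 9 arrays, and *Fbxo45*, needed for neuronal development, on 1, so no level was measured for them.

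The partners of the F-box proteins build and regulate the ligase. Of 36 listed SCF core subunits and regulators, 33 were on the array with 51 probes. With limma, none was called in OV against embryo-minus-otic or between the non-otic groups, where 5 and 8 probes had an unadjusted *p* under 0.05 beside 21.4% and 16% of all probes, and 2 genes were lower in OV than in periotic tissue. Over all probes the called shares were 11.4%, 5.81% and 10.2%. The 2 genes were *Commd1*, a copper-handling protein that also acts in ubiquitin ligases, with 1 of 2 probes (-0.37, SE 0.0989, *q* = 0.0225), and *Dcun1d4*, a cullin neddylation factor, with 1 of 2 probes (-0.33, SE 0.0918, *q* = 0.0279, limma with Benjamini-Hochberg). The *Commd1* call was lost without OV pool 2 or 3 or any periotic pool, and the *Dcun1d4* call without any OV or periotic pool, with ratios of 0.722 to 0.82 and 0.777 to 0.803 over all single omissions. Both were also lost with median normalization (*q* = 0.236 and 0.264, limma). *Skp1a*, which binds every F-box protein, had means of 10.23 ± 0.238 in OV, 9.91 ± 0.185 in periotic tissue and 9.94 ± 0.282 in embryo-minus-otic tissue (SD, n = 3), and *Cul1* had 9.90 ± 0.0513, 9.93 ± 0.114 and 9.87 ± 0.178, differences between OV and the non-otic groups that the test did not call (*q* from 0.246 to 0.946, limma). The median difference of the list was 0.02, -0.02 and 0.03 in the 3 comparisons, beside 0.00, 0.00 and 0.01 over all probes.

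F-box genes that carry other names were few on the array. Of 7 listed, 5 were found with 11 probes, and the only call among them was the *Kdm2b* probe already counted as *Fbxl10*. That call was in OV against periotic tissue, where 10.2% of all probes were called. The shares were 11.4% in OV against embryo-minus-otic and 5.81% between the non-otic groups, and nothing is read from so few probes. *Skp2*, which targets the cell cycle inhibitor p27, *Btrc*, which targets β-catenin, and *Ccnf*, the cyclin F gene that gave the F-box its name, were not called in any comparison.

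Glycoprotein quality control genes recognise, trim and extract misfolded glycoproteins. Of 32 listed, 27 were on the array with 38 probes, and a single call was made over OV against embryo-minus-otic, OV against periotic and periotic against embryo-minus-otic tissue, where 11.4%, 10.2% and 5.81% of all probes were called. At an unadjusted *p* under 0.05 in limma there were 8, 6 and 1 of these probes, beside 21.4%, 19.1% and 16% of all probes, and nothing particular to the list is read from these counts. The called gene was *Engase*, which cleaves N-glycans from proteins in the cytosol, higher in OV than in embryo-minus-otic by 0.35 (SE 0.0857, *q* = 0.0122, limma) and at least 1.12-fold, since it was not well above background there. The *Engase* call was lost without OV pool 2 (1.26-fold, *q* = 0.0509, limma) and without normalization between arrays (1.16-fold, *q* = 0.879). *Vcp*, the ATPase that pulls substrates out of the endoplasmic reticulum, differed by 0.12 (*q* = 0.649) and 0.13 (*q* = 0.656, limma) between OV and the non-otic groups. The list's median difference was 0.01, -0.03 and 0.00.

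All 7 proteins listed as described Fbxo2 substrates had probes, but *Grin1*, *Grin2a*, *Insr* and *Cftr* were above background on none of the arrays. *App*, the amyloid precursor protein gene, had 10.33, 10.44 and 10.29 in OV, 9.67, 9.86 and 9.68 in periotic tissue, next to 9.54, 9.44 and 9.51 in embryo-minus-otic tissue. OV was above all other pools, by 0.86 against embryo-minus-otic (SE 0.0876, *q* = 4.43e-06, 1.82-fold) and by 0.62 against periotic tissue (SE 0.0876, *q* = 0.000127, 1.54-fold, limma with Benjamini-Hochberg), and without normalization between arrays the second was 1.46-fold and not called (*q* = 0.067). *Bace1*, the protease that cuts App, was lower in OV than in periotic tissue (8.59, 8.80 and 8.65 against 8.95, 9.02 and 9.0), a difference of -0.31 (SE 0.0872, *q* = 0.0338, limma), a call that was lost without any one of the periotic pools or without OV pool 1 or 3 (ratios of 0.775 to 0.833 over all single omissions) or with median normalization (*q* = 0.311). *Itgb1* was not called. An array of RNA measures neither the ubiquitin ligase nor the amount of any of these proteins.

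**Figure D5:**
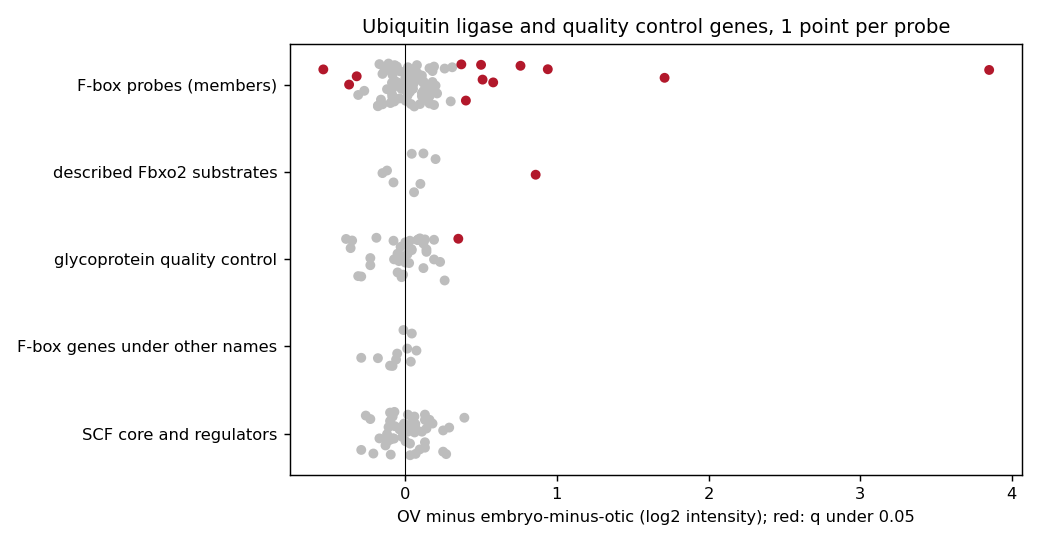
Difference of mean log2 intensity between OV and embryo-minus-otic for each probe of the F-box family and of 4 related gene lists, 1 point per probe, with red marking *q* under 0.05 and the vertical spread within a list only separating the points. The SCF subunits hold no red point, the described substrates hold *App* at 0.86, and the F-box probes extend to *Fbxo2* at 3.85. The F-box probes of *Kdm2b* appear also among the genes under other names.

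Marker genes of the cell types in the pools also differed between the groups. Of 11 otic markers on the array, 9 were higher in OV than in either non-otic group, and their mean log2 intensity was 7.56 to 7.63 in OV, 6.30 to 6.36 in periotic tissue and 6.33 to 6.38 in embryo-minus-otic tissue. Of 11 epithelial markers, 10 were higher in OV than in embryo-minus-otic and 11 than in periotic tissue, with means of 8.59 to 8.68, 6.45 to 6.78 and 7.07 to 7.35 in OV, periotic and embryo-minus-otic tissue. Of 9 mesenchyme markers, 8 were lower in OV than in embryo-minus-otic and 7 were lower in periotic tissue than in embryo-minus-otic, with means of 6.84 to 7.0, 6.96 to 7.13 and 7.80 to 8.0. Of 9 erythroid markers, 8 were lower in OV than in each non-otic group. Of 9 neural tube markers, 1 was higher and 3 were lower in OV than in each non-otic group. Of 9 markers of neurons and neuroblasts, 1 was higher and 2 were lower. Of all probes, 5.89% and 5.07% were higher in OV than in embryo-minus-otic and periotic tissue, 5.51% and 5.15% were lower, and 2.95% were lower in periotic than in embryo-minus-otic tissue. The F-box calls in OV went in both directions, and 71 of the 87 F-box probes were called in neither OV comparison. The part of the marked cell types in the F-box differences was not tested.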

How the data were processed

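Total RNA of each pool was amplified, labelled with biotin and hybridized to an Illumina MouseRef-8 v2.0 array. The values deposited by the authors are the GenomeStudio average signal, a linear intensity not normalized between arrays, and a detection p-value that places each signal among the negative controls of its array. Whether a background was subtracted is not given in the sources used here. Arrays were grouped by the tissue in their labels. A floor of 1 was set under the intensities (it changed 0 values) before the log2 step and quantile normalization of the 9 arrays together. A model of the 3 groups was fitted to all 25697 probes in limma 3.58.1 (R 4.3.3) with an empirical Bayes prior. Adjustment by Benjamini-Hochberg over the whole table gave *q*, and a probe was called at *q* under 0.05. Fold Δ is 2 to the power of the difference of log2 means. Probes were not averaged by gene. A gene of a list counted as called when any of its probes was called, while the shares over the array are of single probes. A probe counted as above background at a detection p under 0.01 (alternative 0.05), which 43.9% to 47.3% of probes passed per array. The number of arrays limits the precision. The fit was also tested on simulated data of 25697 probes with known changes. In the simulated OV arrays 100 probes were changed by 1 log2 unit and 100 by 2, and the rest were left unchanged. For OV against embryo-minus-otic, 94% of probes changed by 1 log2 unit and 100% of those changed by 2 were recovered with 12 false calls. Against periotic tissue these were 94% and 99% with 7 false calls. The changed probes were all above background throughout a group, and the noise was independent between arrays. Smaller changes, changes of dimmer probes, and as many changed probes as were called in the data were not simulated, so these rates do not cover them.

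The members and gene lists were chosen with earlier results of these data known. Named genes were *Fbxo2* and its paralogs, every F-box probe called in OV against both non-otic groups, the largest called differences between the non-otic groups, F-box genes with textbook roles, the largest call of each list and direction, and the neighbours of *Fbxo2*. Further F-box probes called against 1 non-otic group, and some list members, were named after their values were seen. Not every gene this rule covers is reported here. Of the 52 array symbols, 47 were found as symbols in the RefSeq table of GRCm38.p6 and 5 through 1 synonym. That table gave gene order and promoter windows, and chromosomes are those of the deposited annotation. As alternatives, the background was corrected with neqc (offset 16), arrays were scaled to the median or not at all, dim probes were filtered at 2 thresholds, each pair of groups was fitted alone, replicate numbers were blocked, the prior was given an intensity trend, arrays were weighted, and single arrays were omitted.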

Additional observations from a re-analysis of the deposited data

How the results depend on the processing

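The count of F-box probes called was 12 in OV against embryo-minus-otic (4 to 14 over the other settings, 10 to 12 with one array left out), 12 in OV against periotic tissue (5 to 13, and 6 to 13), 2 in periotic against embryo-minus-otic tissue (0 to 2, and 0 to 2) and 8 in OV against both (4 to 9, and 5 to 7). Without normalization between arrays these counts were 4, 5, 0 and 4, and with median normalization the counts against periotic tissue and against both were 7 and 5. The OV fold Δ of *Fbxo2* was 14.1, 30.4 under neqc and 13.5 to 14.7 with one array left out, and that of *Fbxo44* was 2.31, with 2.29 to 3.22 over the other settings and 2.18 to 2.41 with one array left out. Of 24 single comparisons of F-box probes that were called, 7 were called in all 18 alternatives (*Fbxo44* and the first and second *Fbxo32* probes in both OV comparisons, and *Fbxo6* against periotic tissue), 17 were lost in at least 1, and 0 changed direction. The causes were not tested. With the replicate number as a block the counts were 14, 12, 2 and 8, and of the 24 only the *Fbxo34* call against periotic tissue was lost. Deviations of same-numbered arrays from their group means correlated between 0.0108 and 0.234 over probes. Those of differently numbered arrays correlated between -0.192 and 0.0637. The same-numbered values were all positive, while the others had both signs. The ranges still overlapped, and embryo-minus-otic pool 3 correlated more with OV pool 1 (0.0253) than with OV pool 3 (0.0108). The sample labels give a number and no litter. Whether a shared number marks a shared litter was not tested, and the block is reported as an alternative. Probes near background limit what can be seen of *Fbxo17*, *Fbxw11*, *Fbxo5* and *Fbxo45*.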
